A study of Rattus norvegicus with 6 samples.

Results

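Toll-like receptors (TLRs) with the co-receptor Cd14 and the adaptor Myd88 were examined in rat lung after bleomycin. The rows of the linear transcript table whose gene name was Tlr2, Tlr3, Tlr4, Tlr5, Tlr6, Tlr7, Tlr8, Tlr9, Myd88 or Cd14 were taken, which gave 10 of the 21210 gene names with an annotated transcript and 18 of the 70376 transcripts. The lungs came from Sprague-Dawley rats 7 weeks old at the start. The 3 pulmonary fibrosis (PF) model rats received bleomycin, a DNA-damaging drug that injures the lung, at 7 mg/kg in 1 intratracheal instillation, and the 3 control rats received the same volume of saline. Specimens of lung were collected at 28 days, and 1 library depleted of rRNA was made per rat. These are bulk specimens of lung, so fewer cells of a type and less RNA per cell cannot be told apart in any value below. No strain, allele or other agent distinguishes the groups in the sources used here, and the lobe that was sampled is not given there.

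TLRs are membrane receptors that bind microbial molecules, and some also respond to molecules released from injured cells and matrix. Tlr2, Tlr4, Tlr5 and Tlr6 act at the cell surface, while Tlr3, Tlr7, Tlr8 and Tlr9 bind nucleic acids inside endosomes. All of them except Tlr3 signal through Myd88, which recruits Irak kinases and leads to activation of NF-kB, whereas Tlr3 uses the adaptor Ticam1 (Trif). In the lung these receptors are known on macrophages, dendritic cells and epithelium, and they have been studied as sensors of matrix fragments during injury and repair.

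Levels are given as FPKM, fragments per kilobase of transcript scaled to the depth of the library, summed over the transcripts of a gene name, in the order control 1, 2 and 3 and then model 1, 2 and 3. Means are followed by the SD with n = 3 rats in each group. A difference is that of the group means of log2(FPKM + 1), model minus control, with the standard error (SE) and p of limma fitted over all 19203 genes tested. It understates the fold change of genes at low FPKM. The coverage of the listed linear transcripts corresponds to an estimated 35778631 to 41112682 reads per library. This is not the depth of sequencing, and the paper reports more clean reads for each library. Pairs of libraries correlated with r between 0.967 and 0.979 over 21210 gene names, and by this measure no library stood apart or repeated another. Their composition did differ. Rfam-named small RNA genes took between 34.1% and 46.4% of the FPKM, and summed FPKM ran from 510208 in model 3 to 597647 in control 2.

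None of the 10 genes passed the test between model and control lungs. By limma, 0 of 10 had an unadjusted p of at most 0.05, against 4.9% of all genes tested (940 genes). Of those 940 genes 415 were higher in the model, a share of 44.2% that became 73.6% of 936 calls after rescaling to TPM. With an absolute log2 ratio of mean FPKM of at least 1 required in addition, 0 of the 10 passed, against 1.53% of all genes, and 0 had an adjusted p below 0.05, against 0.0104%. In no member did the 3 control and the 3 model values stand apart, which they did in 10.7% of all genes. A further F test, in which the models held a covariate for each library, also called 0 of the 10, against 4.12% of all genes. That covariate is called library size below and was summed from the library's own FPKM on a log scale. Since FPKM are already scaled to depth, it is not the number of reads, and this test does not adjust for depth of sequencing. The median difference of the 10 was -0.06, beside -0.01 over all genes tested, and 3 of them lay above 0 and 7 below. All 10 members were expressed above 0 in every library and passed the filter on low values.

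Among the receptors of the cell surface, Tlr4, which senses lipopolysaccharide, was the most abundant in every library. Its FPKM were 11.88, 10.25 and 14.65 in control and 10.09, 11.55 and 8.78 in model lungs. The means were 12.3 ± 2.22 and 10.1 ± 1.39, and model 2 lay above control 2. The difference was -0.25 (SE 0.15, 95% interval -0.62 to 0.12, adjusted p = 0.934), and it was -0.12 without control 3 and -0.16 without model 3. Tlr4 rested on 1562 to 2921 reads per library and lies at chr5:82587420-82601052 on the plus strand in the coordinates of the files, whose genome build is not given in the sources used here.

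Tlr2, which binds lipoproteins together with Tlr1 or Tlr6, had FPKM of 1.35, 1.43 and 1.87 in control and 1.60, 1.23 and 1.84 in model lungs. The groups overlapped almost entirely, with means of 1.55 ± 0.28 and 1.56 ± 0.305 and an interval of the difference from -0.35 to 0.35 (adjusted p = 1.0). It is the product of 1 annotated transcript at chr2:182840727-182846061 on the minus strand. Tlr5, the receptor for flagellin, was at 2.45, 2.27 and 2.40 FPKM in control and 1.82, 1.84 and 2.30 in model lungs. Its highest model value, in model 3, exceeded the lowest control value. The difference was -0.18 (SE 0.12, 95% interval -0.47 to 0.11, adjusted p = 0.934). Tlr5 lies at chr13:101381510-101385764 on the plus strand.

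Tlr6, the partner of Tlr2, had the lowest mean of the sums. Its FPKM were 1.28, 0.512 and 1.61 in control and 1.31, 1.38 and 0.395 in model lungs, so 1 library of each group lay well below the others. The difference was -0.08 (SE 0.28, 95% interval -0.76 to 0.61, adjusted p = 0.992). It lies at chr14:45024351-45046446 on the plus strand, and reads that it shares with the closely related Tlr1 could have been split between them. Cd14, which passes lipopolysaccharide to Tlr4, had FPKM of 3.59, 3.46 and 5.12 in control and 3.47, 4.13 and 4.08 in model lungs. All 3 model values fell within the range of the controls, and the difference was -0.03 (SE 0.16, 95% interval -0.42 to 0.35, adjusted p = 0.994). It lies at chr18:29560365-29562153 on the minus strand.

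Of the endosomal receptors, Tlr3, which binds long RNA duplexes, was at 3.56, 3.06 and 4.11 FPKM in control and 3.09, 4.94 and 3.68 in model lungs. Model 2 held the highest value and control 2 the lowest, and the difference was 0.09 (SE 0.18, 95% interval -0.34 to 0.52, adjusted p = 0.97). Tlr3 lies at chr16:50016857-50031214 on the plus strand. Tlr7, a receptor for single-stranded RNA, was at 2.06, 2.36 and 3.22 FPKM in control and 3.84, 1.85 and 1.38 in model lungs. The model libraries held both its highest and its lowest value, and the interval of the difference ran from -0.82 to 0.55 around -0.14 (adjusted p = 0.972). Its neighbour Tlr8, which also senses RNA, was at 3.78, 3.97 and 4.82 FPKM in control and 2.98, 3.92 and 3.19 in model lungs. Only model 2 reached into the control range, the means were 4.19 ± 0.55 and 3.36 ± 0.493, and the difference was -0.25 (SE 0.14, 95% interval -0.59 to 0.09, adjusted p = 0.934), or -0.17 without control 3.

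Tlr7 and Tlr8 lie side by side on the plus strand, at chrX:28486869-28512957 and chrX:28539158-28562803. Tlr9, which senses DNA with unmethylated CpG, was at 1.31, 2.14 and 1.99 FPKM in control and 1.54, 1.82 and 1.93 in model lungs. All 3 model values lay inside the control range (difference -0.01, SE 0.16, 95% interval -0.39 to 0.36, adjusted p = 0.998). Tlr9 lies at chr8:114916122-114920171 on the plus strand.

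The adaptor Myd88 had the smallest SE of the 10 members. Its FPKM were 8.45, 8.94 and 7.495 in control and 8.73, 8.49 and 8.37 in model lungs, with means of 8.29 ± 0.735 and 8.53 ± 0.186. All 3 model values lay within the control range, and the difference was 0.04 (SE 0.10, 95% interval -0.19 to 0.27, adjusted p = 0.978). Myd88 lies at chr8:128022473-128026841 on the minus strand. Across the 10 members the widest intervals were those of Tlr7 and Tlr6, from 0.565-fold to 1.47-fold and from 0.591-fold to 1.52-fold on the scale of FPKM + 1. No transcript with another gene name overlapped the annotated loci of the members. Exact permutation tests of the mean FPKM gave p between 0.2 and 1.0 for the 10 members, where 3 against 3 allows no p below 0.1.

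**Figure D1:**
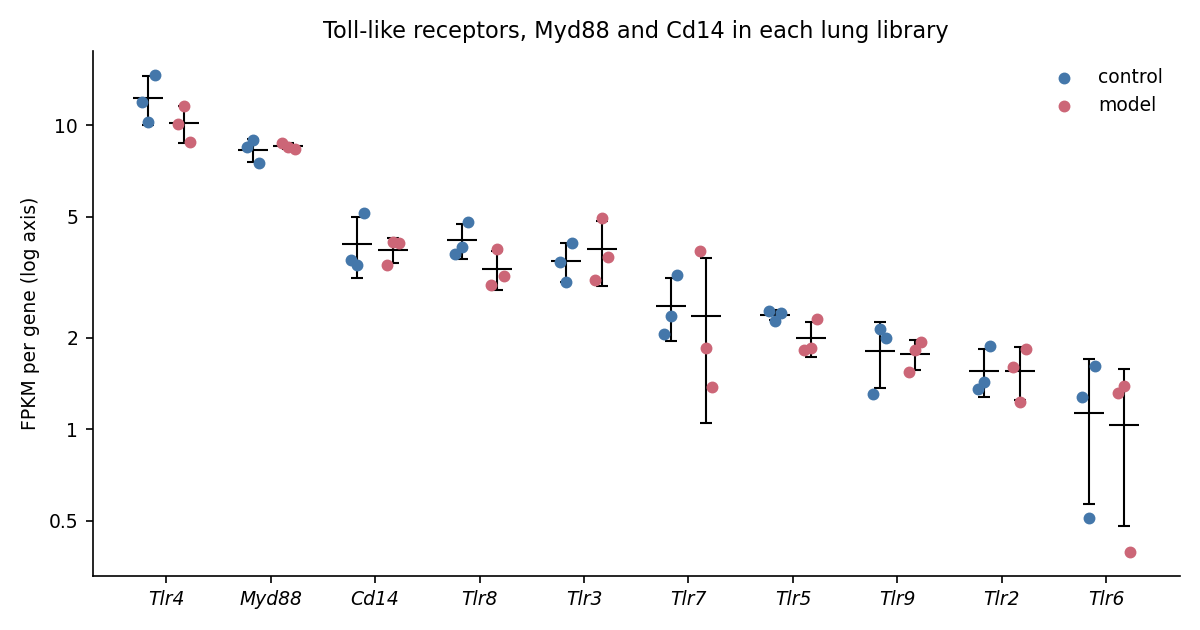
FPKM per gene on a log axis for the 10 members in descending order of the mean, with 3 control (blue) and 3 model (red) libraries as points, black lines at the group mean and bars of 1 SD. The groups overlap for every member, and Tlr6 has 1 low library in each group, at 0.512 and 0.395 FPKM.

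In order of mean FPKM over the 6 libraries, the members were Tlr4 (11.2), Myd88 (8.41), Cd14 (3.98), Tlr8 (3.78), Tlr3 (3.74), Tlr7 (2.45), Tlr5 (2.18), Tlr9 (1.79), Tlr2 (1.55) and Tlr6 (1.08). Tlr4 was the highest member in all 6 libraries. Tlr6 was the lowest in 5 of them, the exception being model 2, where Tlr2 was lowest. Of the 9 pairs of neighbours in this order, Tlr4 over Myd88, Myd88 over Cd14 and Tlr5 over Tlr9 kept their order in 6 of 6 libraries. Each of these 3 pairs gave p = 0.03125 in an exact two-sided sign-flip permutation test, the smallest that 6 libraries allow, and an adjusted p of 0.0938 over the 9 pairs, so no neighbours differed at an adjusted p below 0.05. Cd14, Tlr8 and Tlr3 could not be ordered, with Cd14 over Tlr8 in 4 and Tlr8 over Tlr3 in 3 of 6 libraries. The order depends on which assembled transcripts are counted, among them runs past the gene ends, which are described below for Tlr3, Tlr4 and Tlr5. With annotated and class j transcripts only, Tlr5 had the lowest mean (0.947 FPKM), lay below Tlr9 in 6 of 6 libraries and below Tlr6 in 4 of 6. On the same transcripts Tlr4 had a mean of 8.09 FPKM and exceeded Myd88 in 2 of 6 libraries. With annotated transcripts only, which leaves out the assembled Myd88 transcript as well, Tlr4 (8.09 FPKM) exceeded Myd88 (5.08 FPKM) in 6 of 6. The median gene tested had a mean of 3.97 FPKM. Tlr4 exceeded 76.9% and Myd88 69.6% of the genes tested, whereas Tlr6 exceeded 28.4%.

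The start regions of Tlr4, the receptor with the highest level, of Myd88, the member whose transcripts passed the test at an unadjusted p, and of Tlr6, the member with the lowest sum, are shown for comparison of their sequences. Each run covers 250 bases before and 50 after the start of the gene in RefSeq, build GRCr8, whose coordinates cannot be set beside those of the files. All 10 members were matched in that table. Capitals mark GAGGAA, the core bound by the myeloid factor PU.1 and other ETS factors, on either strand (TTCCTC when read on the opposite strand), and Myd88 has no match. The runs, written 5′ to 3′ along the strand of the gene, are Tlr4 at chr5:85160997-85161296 (plus), Myd88 at chr8:127956181-127956480 (minus) and Tlr6 at chr14:43715559-43715858 (plus).
Tlr4: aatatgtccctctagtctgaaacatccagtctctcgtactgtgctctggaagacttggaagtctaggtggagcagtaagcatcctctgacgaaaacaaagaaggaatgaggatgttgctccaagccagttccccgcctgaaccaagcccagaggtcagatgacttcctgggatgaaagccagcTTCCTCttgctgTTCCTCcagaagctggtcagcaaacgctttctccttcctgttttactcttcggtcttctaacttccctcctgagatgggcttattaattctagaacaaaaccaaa
Myd88: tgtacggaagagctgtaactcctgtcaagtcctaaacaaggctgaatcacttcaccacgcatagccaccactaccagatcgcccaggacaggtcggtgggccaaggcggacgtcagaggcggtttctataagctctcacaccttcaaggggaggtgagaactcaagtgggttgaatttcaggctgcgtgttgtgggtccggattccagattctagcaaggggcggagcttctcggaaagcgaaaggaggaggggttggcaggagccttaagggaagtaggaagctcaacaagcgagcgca
Tlr6: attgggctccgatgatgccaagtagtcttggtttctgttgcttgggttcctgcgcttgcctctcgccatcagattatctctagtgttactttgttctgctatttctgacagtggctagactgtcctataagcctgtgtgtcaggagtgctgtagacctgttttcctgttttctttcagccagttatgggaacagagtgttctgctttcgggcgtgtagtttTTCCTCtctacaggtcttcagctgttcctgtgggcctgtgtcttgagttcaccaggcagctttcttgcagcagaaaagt

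GAGGAA was found in 7 of the 10 members, namely Tlr3, Tlr4, Tlr6, Tlr7, Tlr8, Tlr9 and Cd14, and in 27.6% of all 33469 start regions of that length. The Tlr4 region holds 2 matches and lacks the other motifs searched. The interferon regulatory factor motif AANNGAAA was found in 7 members and in 26.4% of all regions, the AP-1 site TGANTCA in Tlr9 and Myd88 and in 7.33%, and the TATA box TATAAA in Tlr8 alone and in 14.2%. The NF-kB consensus was found in Tlr2 alone among the members and in 7.51% of all regions. Each motif was searched on both strands. These matches are letters in a fixed window and were not tied to binding or to the levels above.

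The 2 transcripts of Myd88 differed in opposite directions at an unadjusted p of at most 0.05, and neither passed after adjustment over all transcripts. The annotated transcript ENSRNOT00000018341, of 6 exons and 2457 bases, was at 4.02, 4.53 and 4.09 FPKM in control and 5.99, 5.17 and 6.64 in model lungs. All 3 model values lay above all 3 control values. It was higher by 0.41 (SE 0.12, 95% interval 0.11 to 0.70) at an unadjusted p of 0.0149 and an adjusted p of 0.945 in the limma fit over 64867 transcripts. The means were 4.21 ± 0.277 and 5.94 ± 0.737 FPKM. The call held in 14 of 15 alternatives, and in the F test with library size it did not pass, with a difference of 0.24.

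The other Myd88 transcript, MSTRG.36009.2, was assembled by the authors and shares a splice junction with the annotated one (class j). It has 4 exons and 2045 bases at chr8:128023010-128026017, and it begins 824 bases inside the annotated 5′ start and ends 537 bases inside the annotated 3′ end. It was at 4.43, 4.41 and 3.40 FPKM in control and 2.74, 3.31 and 1.72 in model lungs, so that every model value lay below every control value, narrowly for control 3 and model 2. It was lower by 0.52 (SE 0.21, 95% interval -1.04 to -0.0037) at an unadjusted p of 0.0489 and an adjusted p of 0.945. This call was lost in 7 of 15 alternatives. Among them were those without control 1 (difference -0.47), control 2 (-0.47), model 1 (-0.56) and model 3 (-0.33), and the F test with library size (-0.27).

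As a share of Myd88 FPKM, the annotated transcript took 47.6%, 50.7% and 54.6% in control and 68.7%, 60.9% and 79.4% in model lungs. The means were 51.0% ± 3.55 and 69.7% ± 9.27, a difference of 18.7 percentage points. Since the 2 levels already stood apart in opposite directions, their shares and ratios had to stand apart as well. An exact permutation test of the share therefore had to give p = 0.1, the smallest that 3 against 3 allows. It adds nothing to the 2 calls above, and shares were not tested over other genes. The ratio of the annotated to the assembled transcript ran from 0.907 to 1.20 in control and from 1.56 to 3.85 in model lungs. By coverage, the annotated transcript held 458, 474 and 491 reads in control and 714, 559 and 751 in model libraries, while the assembled one held 420, 384 and 340 and then 271, 298 and 162. Reads on the exons that both share were divided between them by the authors' estimation. A call of 1 annotated and 1 class j transcript in opposite directions was made in 1.3% of the 6637 genes with both kinds tested (86 genes).

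**Figure D2:**
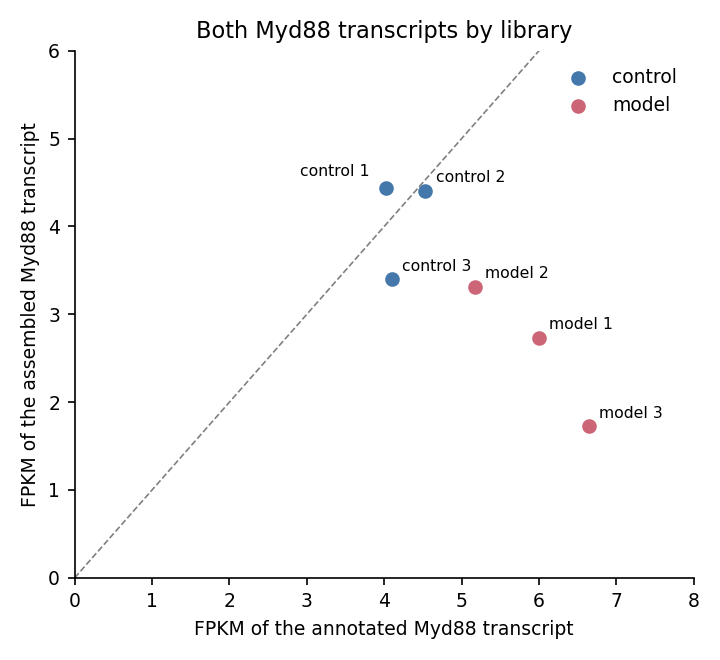
FPKM of the annotated (horizontal axis) against the assembled Myd88 transcript (vertical axis), 1 point per library, control blue and model red, with a dashed line of equal levels. The control libraries lie near the line, with ratios of 0.907 to 1.20, and the model libraries lie below it, with ratios of 1.56 to 3.85.

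Over the 18 transcripts of the members, all of which were tested, these 2 of Myd88 had an unadjusted p of at most 0.05, against 4.53% of all transcripts. With the log2 ratio of at least 1 in addition, 0 of the 18 passed, against 2.98%, and 0 had an adjusted p below 0.05, against 0.0277%. The groups stood apart in 3 of the 18, against 10.4% of all transcripts. The third is MSTRG.10644.1, a run of 909 bases that starts 942 bases past the end of Tlr5, with 1.23 to 1.71 FPKM in control and 1.001 to 1.164 in model lungs (difference -0.21, unadjusted p = 0.216 by limma).

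Tlr6 has 2 annotated transcripts, and the low libraries are those in which the longer one took most of the level. ENSRNOT00000076753, of 2700 bases, took between 93.4% and 95.6% of Tlr6 FPKM in 4 libraries, but 11.8% in control 2 and 0% in model 3. In those libraries ENSRNOT00000002933, of 7118 bases, took 88.2% and 100%. The reads of Tlr6 were 177, 144 and 232 in control and 184, 177 and 129 in model libraries. Reads thus differed less than FPKM, which divide by the length of the transcript to which reads are assigned. An exact permutation test of the group difference in the share gave p = 1.0, where 3 against 3 allows no p below 0.1.

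Tlr3 was divided among 4 transcripts whose shares changed from library to library within both groups. The assembled MSTRG.14221.1 (class j, 8 exons) had the highest mean, at 1.69, 2.74 and 1.25 FPKM in control and 1.41, 1.70 and 2.51 in model lungs. It was exceeded by ENSRNOT00000087986 in control 3 and by MSTRG.14222.1 in model 2. ENSRNOT00000035781 was listed at 0 in control 2, model 1 and model 3, and ENSRNOT00000087986 ranged from 0.162 to 1.90 FPKM. MSTRG.14222.1, a run of 323 bases that starts 1018 bases past the end of Tlr3, was at 0.502, 0.111 and 0.408 FPKM in control and 0.334, 1.81 and 1.01 in model lungs, on 2 to 26 reads. Without such runs, that is with annotated and class j transcripts only, Tlr3 was at 2.94 to 3.70 FPKM in control and 2.67 to 3.13 in model lungs, and the difference turned from 0.09 to -0.13 (SE 0.12, adjusted p = 0.951). Total Tlr3 reads were 606 to 765 in control and 599 to 615 in model libraries.

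**Figure D3:**
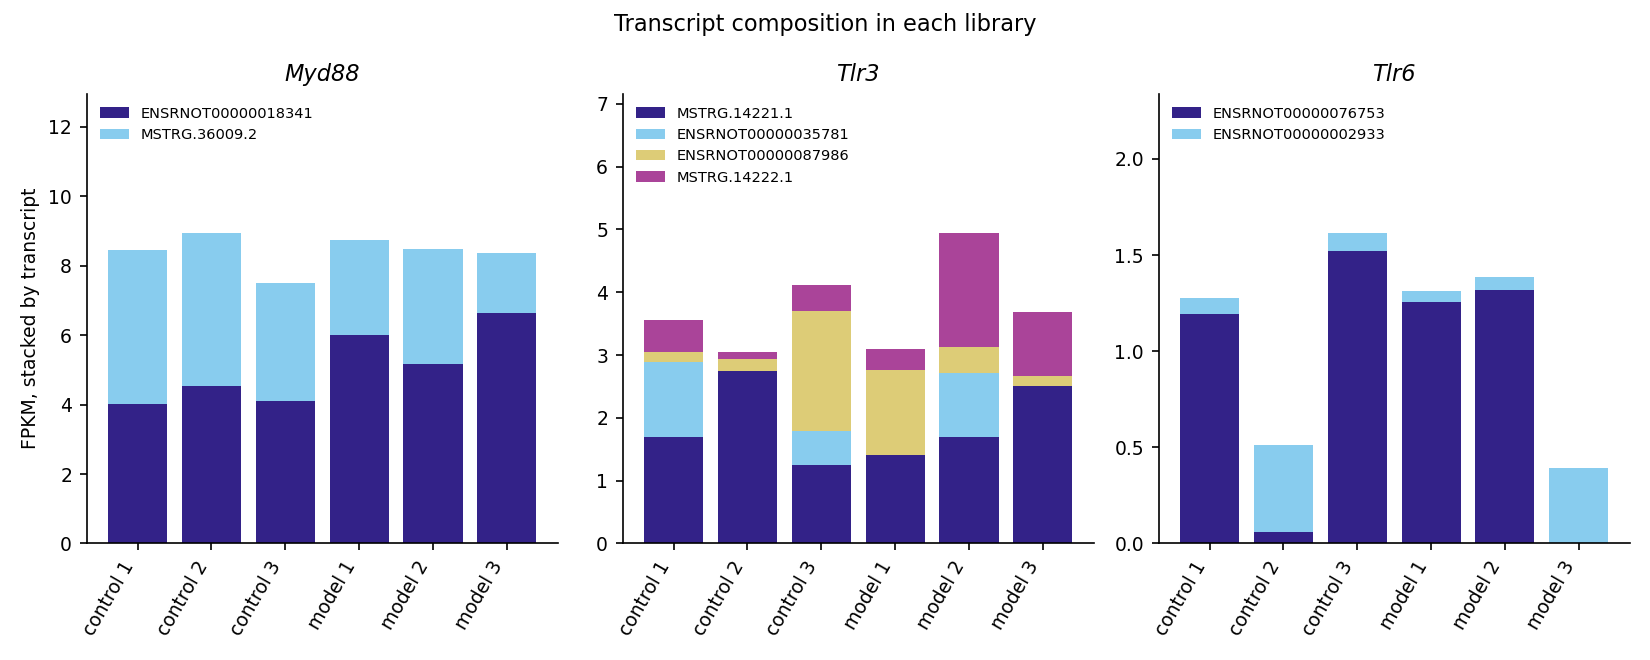
FPKM in each library stacked by transcript for Myd88, Tlr3 and Tlr6, with 3 control and 3 model libraries along the horizontal axis. The Myd88 bars are of like height while the annotated part (dark) is larger in the model, and Tlr6 in control 2 and model 3 consists mostly of ENSRNOT00000002933.

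Assembled runs past the gene end also entered the sums of Tlr4 and Tlr5. For Tlr4 the annotated ENSRNOT00000014020 held 7.21 to 10.33 FPKM in control and 6.93 to 8.38 in model lungs, and MSTRG.28189.1, of 5850 bases and starting 804 bases past the gene end, added 3.04 to 4.32 and 1.84 to 3.17. The difference of the annotated transcript was -0.18, against -0.25 for the sum. For Tlr5 the sum was 2.30 times the level of the annotated ENSRNOT00000004821, which alone differed by -0.04 (95% interval -0.42 to 0.35). Tlr7 held an intronic run of 317 bases, MSTRG.38122.1, at 0.272 to 1.25 FPKM in control and 0.278 to 1.77 in model lungs. Its annotated transcript ENSRNOT00000005620 was at 1.79, 1.85 and 1.97 FPKM in control and 2.07, 1.44 and 1.10 in model lungs. Tlr2, Tlr8, Tlr9 and Cd14 each had 1 annotated transcript and no assembled one. No circRNA of the 5216 in the deposited table came from a member gene, and 11 came from 8 of the pathway genes described next.

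Of 71 other genes of TLR signalling, 65 were found and 64 tested, and by limma 0 had an unadjusted p of at most 0.05 in either direction, beside the 4.9% of all genes given above. The F test with library size called 3 of them, Ikbkb, Ikbkg and Vcan, all higher in the model, beside the 4.12% of all genes that it called, and 0 of the 64 had an adjusted p below 0.05 by either tool. The groups stood apart in 6, which were Irak1, Tab1, Ikbkb, Ikbkg, Cyld and Icam1, against 10.7% of all genes. Their median difference was -0.04, with 26 above 0 and 38 below. Tlr10, Ly96, Cd36, Cd180, Ticam1 and Ifnb1 were not among the gene names with an annotated transcript. Tlr13 was matched through a RefSeq synonym.

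Among the other TLRs, the only one with a mean of at least 1 FPKM was Tlr13, an endosomal receptor for bacterial ribosomal RNA, at 7.85, 7.36 and 9.23 in control and 9.39, 6.84 and 7.57 in model lungs. Tlr1, Tlr11 and Tlr12 ranged from 0.10 to 1.12 FPKM. Of the 5 co-receptors and folding partners, Hsp90b1 (gp96), the chaperone of most TLRs, differed by -0.07 and Cnpy3, its co-chaperone, by 0.05. Unc93b1, which escorts the endosomal receptors, was at 7.77 to 10.03 FPKM in control and 8.13 to 10.76 in model lungs. The differences of this list lay between -0.07 and 0.05.

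The 8 genes of endogenous ligands had a median difference of 0.11, with 5 above 0. The matrix protein Tnc (tenascin C) was at 11.32, 14.75 and 8.90 FPKM in control and 13.44, 11.55 and 17.08 in model lungs, a difference of 0.26 (SE 0.21). S100a9, a calcium-binding protein of neutrophils and monocytes, differed by -0.16 (SE 0.19). Neither passed the test.

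All 3 adaptors found besides Myd88, which lay at 0.04, were below 0 without passing the test. Ticam2 (Tram), which links Tlr4 to Ticam1, was at 1.39, 1.08 and 1.19 FPKM in control and 1.14, 0.753 and 1.14 in model lungs. Tirap (Mal), which brings Myd88 to Tlr2 and Tlr4, differed by -0.09. The summed FPKM of the 3 adaptors was 4.85 to 5.03 in control and 3.91 to 4.63 in model lungs, but in none of the 3 did the groups stand apart. How often such sums stand apart over all genes was not tested. Of the 14 kinases and ubiquitin ligases below Myd88, Tab3, a subunit of the Tak1 complex, differed by -0.30 (SE 0.20) and the ligase Traf3 by 0.26 (SE 0.26). For Traf3, control 1 was at 1.41 FPKM and the other 5 libraries lay between 3.17 and 3.62. Ikbkg (Nemo), the regulatory subunit of the IkB kinase, was at 6.53 to 6.55 FPKM in control and 7.17 to 7.77 in model lungs (difference 0.16, adjusted p = 0.934), and was chosen after its values were seen.

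For the 10 transcription factors the median difference was -0.02, with Relb at 0.20 (SE 0.17) and Rel at -0.17 (SE 0.14) farthest from 0. Both are NF-kB subunits. Among the 7 negative regulators, Socs1, an inhibitor of cytokine and TLR signalling, differed by -0.26 (SE 0.20) and the inactive kinase Irak3 by -0.18 (SE 0.15). The 13 induced targets tested had the lowest median of the 8 lists, -0.17, with 10 below 0. The neutrophil chemokine Cxcl1 was at 10.4, 19.0 and 22.1 FPKM in control and 14.9, 17.6 and 4.73 in model lungs, a difference of -0.54 (SE 0.49) with overlapping groups. Cxcl10, an interferon-induced chemokine, differed by -0.38 (SE 0.24). Il6 was listed at 0 in 5 of the 6 libraries and was not tested.

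**Figure D4:**
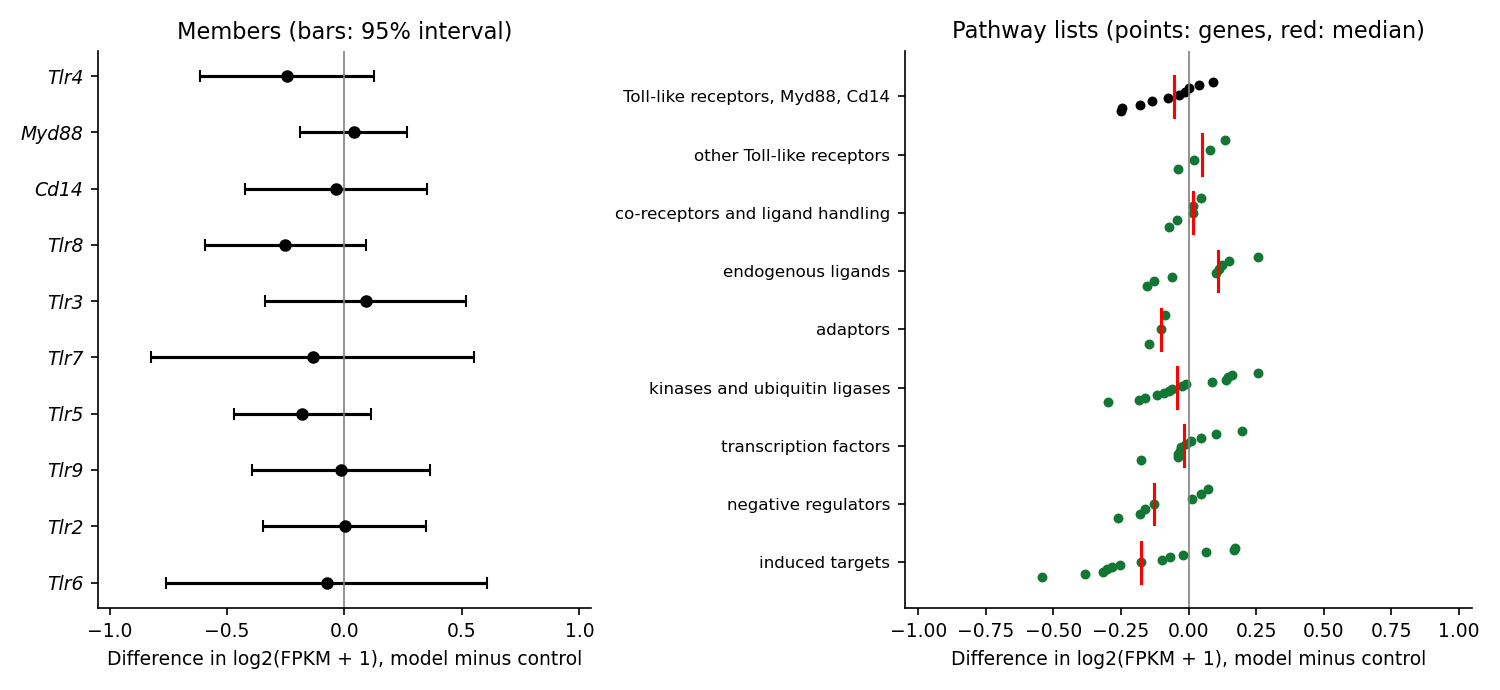
Differences in log2(FPKM + 1), model minus control, with 95% intervals for each member (left), and as points for the tested genes of each pathway list with the list's median in red (right). All 10 member intervals include 0, and the list medians lie between -0.17 and 0.11.

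Markers of the lung epithelium were present in every library. Sftpc, surfactant protein C of alveolar type 2 cells, was at 2410 to 3594 FPKM in control and 3026 to 4146 in model lungs. Of 7 fibrosis genes, 6 lay above 0 with a median difference of 0.16, and their summed FPKM was 397 to 479 in control and 477 to 579 in model lungs. Among them Col3a1, a fibrillar collagen, was at 174.0, 177.9 and 153.6 FPKM in control and 188.5, 203.8 and 232.5 in model lungs (difference 0.30, SE 0.11, unadjusted p = 0.0365, adjusted p = 0.934 by limma), and it was the only one of the 7 with an unadjusted p of at most 0.05. Its call was lost in 8 of 19 alternatives, among them those without control 1 (difference 0.33), control 2 (0.34), control 3 (0.24), model 2 (0.31) or model 3 (0.22). Timp1, an inhibitor of matrix proteases, was the lowest of the list at -0.22, and Spp1, a matrix protein that macrophages secrete, was at or below 0.361 FPKM in every library and listed at 0 in control 2. Col1a1 and Col3a1 also stand in the fibroblast list, and Fn1, S100a8 and S100a9 stand in marker lists as well as in a pathway list. The part of these genes in the shares of the Myd88 transcripts was not tested.

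Of the leukocyte markers tested, Siglech alone had an unadjusted p of at most 0.05. The 6 alveolar macrophage markers found had a summed FPKM of 30.6 to 50.8 in control and 32.4 to 53.8 in model lungs, with Itgax lowest (-0.18) and Mrc1, the mannose receptor, highest (0.31, adjusted p = 0.934). Cd68, a macrophage lysosomal protein, was at 20.7 to 22.8 FPKM in 4 libraries but at 1.30 in control 3 and 1.21 in model 2. Cd68 is itself part of the alveolar macrophage sums. That control 3 and model 2 held the lowest sums of their groups is therefore not a separate observation. For monocytes and interstitial macrophages the 5 markers found summed to 54.8 to 63.2 FPKM in control and 48.9 to 74.6 in model lungs, from Cx3cr1 (-0.12) to C1qb (0.10). Neutrophil markers summed to 11.7 to 16.9 FPKM in control and 10.9 to 13.3 in model lungs, from Csf3r (-0.35) to S100a8 (0.10), and the granule genes Elane and Ltf were listed at 0 in all controls and stayed at or below 0.0447 FPKM. Marco, Itgam, Ccr2, Mpo, Cd79a, Pecam1 and Cldn5 were not among the gene names with an annotated transcript.

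Siglech, a marker of plasmacytoid dendritic cells, was at 0.0185, 0 and 0.154 FPKM in control and 2.93, 0.0620 and 3.35 in model lungs (unadjusted p = 0.0425 by limma). The values of model 1 and model 3 came mostly from an assembled run of 421 bases in an intron that was above 0 in model 1 and model 3 alone, and without intronic and antisense transcripts the p was 0.976. Batf3, a factor of conventional dendritic cells, was lowest at -0.29. The list summed to 18.1 to 23.3 FPKM in control and 20.2 to 25.1 in model lungs, with the intronic run of Siglech included. B cell markers summed to 11.3 to 21.7 FPKM in control and 13.0 to 19.5 in model lungs, from Pax5 (-0.21) to Cd79b (0.07). T cell markers summed to 18.1 to 31.9 and 23.1 to 29.6, from Cd8a (-0.27) to Cd3g (0.16). The structural lists gave no call besides Col3a1, with type 2 cells from Sftpb (0.03) to Lamp3 (0.40), type 1 cells from Pdpn (0.06) to Aqp5 (0.26), endothelium from Emcn (-0.19) to Tie1 (0.08) and fibroblasts from Dcn (-0.13) to Col3a1.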

How the data were processed

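RNA of rat lung from 3 control and 3 PF model rats was analysed, grouped by the sample type in the labels. Per the methods of the study, reads were cleaned by the authors (Cutadapt) and mapped by Bowtie2 and Tophat2 (the submitters' processing notes name HISAT2, StringTie and TopHat). They were assembled with StringTie, and the authors deposited FPKM per transcript estimated with StringTie and Ballgown. The authors also deposited mean coverage per base, a signal not scaled for depth, from which reads were estimated as coverage times length divided by 150. The circRNA table, as deposited by the authors, holds back-splice read counts and a scaled signal. Whether counting used strand, and the genome build, are not given in the sources used here.

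Gene FPKM were the sums over the transcripts of a gene name. Genes with an annotated transcript, and transcripts, were tested when FPKM exceeded 0 in at least 3 of 6 libraries, with limma 3.58.1 (trend) on log2(FPKM + 1) in R 4.3.3, two-sided. Adjusted p are Benjamini-Hochberg values over all features tested. The test was checked on simulated data for 19203 genes with independent normal noise. Changed genes were drawn from those with a mean of at least 1 FPKM and shifted on the scale of log2(FPKM + 1). Limma found 58% of 100 genes changed by 1 log2 unit and 88% of 100 changed by 2 (adjusted p under 0.05) and called 6 unchanged ones. At low FPKM such a unit is more than a doubling of FPKM, so these shares do not give the power for a doubling there. The members, the pathway and the marker lists were chosen with earlier results of these data known. Genes named are all members and, of each pathway list, those with an unadjusted p of at most 0.05 or otherwise the 2 with the largest absolute difference at a mean of at least 1 FPKM. Of marker lists, the lowest and the highest gene and defining markers at 0 are named. Unc93b1, Il6, Cd68, Tlr1, Tlr11, Tlr12, Sftpc and the 6 pathway genes whose groups stood apart fall outside that rule and were chosen after their values were seen. Alternatives changed the pseudocount (0.1 or 0.5), the filter, the scaling, the test, the sum over transcripts and the libraries. Limma p-values set the group difference against the spread among rats within groups, moderated over all features tested. Sign-flip p-values compare neighbouring members within libraries, with both groups pooled. All of them rest on these 6 rats.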

Additional observations from a re-analysis of the deposited data

How the results depend on the processing

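No member passed both thresholds or an adjusted p of 0.05 under any of the 19 alternatives, and 18 of them kept the count of members called at 0. With annotated transcripts only it was 1, Myd88, at 0.41. The median difference of the members ran from -0.14 to 0.02. Member transcripts called fell from 2 to 1 with TPM and with quantile normalization, to 0 in the F test with library size, and lay between 1 and 2 when 1 library was left out. Pathway genes called were 3 in the F test, 1 (Icam1) with TPM, 1 (Nos2) with the replicate block, 1 (Tbk1) with annotated transcripts only, 1 (Irak2) without intronic and antisense transcripts and 1 (Irak2) with annotated and class j transcripts only, an alternative chosen after seeing the data. They were 0 to 1 when 1 library was left out, with Rel called without control 1 and Icam1 without model 2. Differences near 0 changed sign while none passed the threshold. Tlr3 became -0.0877 with a sum weighted by length, -0.19 with annotated transcripts only and -0.13 with class j added. The F test turned Tlr6 to 0.027, Tlr7 to 0.0119, Tlr9 to 0.10, Myd88 to -0.0531 and Cd14 to 0.18. TPM turned Tlr9 to 0.0505 and Cd14 to 0.0363, and quantile normalization turned Tlr9 to 0.014. Leaving out 1 library gave -0.0766 to 0.0963 for Tlr2, -0.0564 to 0.21 for Tlr3, -0.36 to -0.12 for Tlr4, -0.25 to -0.14 for Tlr5, -0.31 to 0.18 for Tlr6, -0.43 to 0.080 for Tlr7, -0.34 to -0.17 for Tlr8, -0.15 to 0.0711 for Tlr9, -0.0249 to 0.0884 for Myd88 and -0.12 to 0.11 for Cd14. The cause was not tested. Libraries with the same number correlated at 0.0766, 0.0327 and -0.0722 in their deviations, and those with unlike numbers at -0.14 to 0.102. No pairing by number was seen, but so few pairs cannot exclude one. With the replicate block 864 genes had p of at most 0.05, 0 by adjusted p, and 0 members. Intervals cover the spread of 3 rats a group, and members at 1 to 2 FPKM rest on 129 to 317 reads.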
